A study of Mus musculus with 12 samples.

Results

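The messenger RNAs of DNA replication and nucleotide synthesis were followed in MEFs, fibroblasts cultured from mouse embryos, that lack members of the Rb family. The set holds 46 genes, chosen by name for their place in helicase loading, DNA polymerases, clamp loading, nucleotide synthesis and chromatin assembly, out of 18193 genes with a probe set of their own on the Affymetrix MOE430 2.0 array. Of these, 45 were measured, and Chaf1a has no probe set under its own name in the annotation used. RNA of 12 cultures was measured, 3 in each of 4 groups. TKO-Ras MEFs carry deletions of Rb1, p107 (gene Rbl1) and p130 (gene Rbl2) together with RasG12D, an activated Ras with the substitution G12D. TKO MEFs carry the same deletions without mutated Ras, Rb1KO MEFs are labelled with the deletion of Rb1 alone, and WT MEFs are wild type. All cells were untreated and harvested while growing exponentially. The design text speaks of biological triplicates of each line, with nothing on separate embryos, so p-values measure the spread between these samples, which may be technical. Strain, embryonic age, the deleted exons and the way Ras was introduced are not given in the sources used here, and the TKO cells came from another laboratory.

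Copying DNA takes an ordered set of machines. The origin recognition complex, Cdc6 and Cdt1 load rings of MCM2-7 onto origins. The kinase Cdc7 with its partner Dbf4 and factors such as Cdc45 and GINS turn each ring into a moving helicase. Polymerases alpha, delta and epsilon then copy the strands, and the clamp Pcna holds delta and epsilon to DNA. Ribonucleotide reductase, thymidylate synthase and the nucleoside kinases supply the deoxynucleotides, and Chaf1b and Asf1b place histones behind the fork. Many of these genes are textbook targets of E2F, transcription factors that pRb, p107 and p130 hold back until cells commit to S phase.

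The deposited values are log2 values, so a difference of 1 is a change of 2-fold, and where a gene has several probe sets the brightest on average was read. Values of 5.13 or less were taken as background, the level below which 95% of values of 44 olfactory receptor probe sets lay. Pairs of arrays of a group correlated at 0.9904 to 0.9954 in TKO-Ras, 0.9907 to 0.9937 in TKO, 0.9926 to 0.9958 in Rb1KO and 0.9695 to 0.9946 in WT MEFs, and the number of arrays limits the precision. Rbl1 was at or below background on every TKO-Ras and TKO array, and Rb1 lay between 6.97 and 7.74 in the mutants, against 8.31 to 8.70 on the WT arrays. Rbl2 lay between 4.6 and 5.35 on the TKO-Ras arrays (above background on 2 of 3), 5.27 and 5.71 on the TKO arrays (above background on all 3) and 3.80 and 4.47 on the arrays labelled Rb1KO (above on 0 of 3), against 7.54 to 7.90 on the WT arrays. The groups labelled with its deletion were thus higher than Rb1KO, whose label names only Rb1, and all were lower than WT. Of the fibroblast markers, Vim lay between 13.94 and 14.51 on all 12 arrays, while Thy1 lay between 4.74 and 4.92 in TKO-Ras, 4.64 and 4.8 in TKO and 5.94 and 6.73 in Rb1KO MEFs, against 10.41 to 11.10 in WT MEFs. Defining markers of leukocytes (Ptprc), endothelium (Pecam1), epithelium (Cdh1), muscle (Myod1) and fat cells (Adipoq) were at background on every array, whereas others of these lists were not, and Sox2, a marker of neural precursors, lay between 9.11 and 10.31 in TKO-Ras and 8.58 and 9.18 in TKO MEFs, against 4.32 to 5.54 in Rb1KO and 3.07 to 4.77 in WT MEFs. As a summed level over 11 of 12 listed fibroblast markers, in log2, the arrays ran from 16.06 to 16.13 in TKO-Ras, 16.39 to 16.45 in TKO and 16.09 to 16.17 in Rb1KO MEFs, against 16.73 to 16.88 in WT MEFs. By limma (adjusted p under 0.05), 1 of the 11 was higher and 5 lower in TKO-Ras than in WT (19.4% and 14.3% of all genes). For TKO it was 1 and 5 (13.6% and 9.9%) and for Rb1KO MEFs 0 and 6 (15.6% and 12.3%). Between TKO-Ras and TKO MEFs it was 0 and 5 (3.19% and 4.17%). Log2 fold changes of the 11 over WT ran from -6.02 to 0.65 in TKO-Ras, -6.10 to 2.53 in TKO and -4.4 to 1.17 in Rb1KO MEFs. Over 8 neural markers, 2 of them at background on all arrays, the summed level ran from 10.87 to 11.27, 10.68 to 11.23 and 9.93 to 10.66 in those mutants, against 11.07 to 11.61 in WT MEFs. Log2 fold changes of the 8 over WT ran from -6.07 to 5.57 in TKO-Ras, -6.75 to 4.82 in TKO and -2.13 to 0.64 in Rb1KO MEFs. A neural marker other than Sox2 was thus far lower in TKO-Ras and TKO MEFs than in WT. The 7 epithelial markers, 3 of them at background on all arrays, summed to 10.48 to 11.12 in TKO-Ras, 9.02 to 9.62 in TKO and 8.90 to 9.20 in Rb1KO MEFs, against 8.56 to 9.62 in WT MEFs, with Krt19 higher in TKO-Ras than in WT by 3.10 (adjusted p = 0.010 from limma). The 8 leukocyte markers, 3 of them at background on all arrays, summed to 9.13 to 9.37, 8.84 to 8.98 and 8.53 to 8.69 in those mutants, against 8.38 to 8.53 in WT MEFs, with Cd14 higher in TKO-Ras by 1.82. Endothelial (5 of 7 at background), muscle (4 of 7) and fat cell markers (2 of 6) had sums that overlapped between TKO-Ras, TKO and WT MEFs. The Rb1KO sums also overlapped with WT, but those of muscle (8.71 to 9.18) lay above TKO-Ras (8.29 to 8.56) and TKO (8.47 to 8.52). Single fat cell markers did pass over WT by limma, with 1 higher and 2 lower in TKO-Ras, 0 and 1 in TKO and 1 and 1 in Rb1KO MEFs. What part these differences between the cultures had in the results below was not tested.

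Every measured gene of the replication machinery was higher in each of the 3 mutants than in WT MEFs. By limma, which fits all 12 arrays together and adjusts p-values over 45037 probe sets, 45 of 45 genes passed an adjusted p of 0.05 upward in TKO-Ras (19.4% of the 18193 genes did), in TKO (13.6%) and in Rb1KO MEFs (15.6%), all against WT. None was lower in TKO-Ras (14.3% of all genes were), in TKO (9.9%) or in Rb1KO MEFs (12.3%). All 45 were above background on at least 3 arrays. Of the 12629 genes for which this holds, 24.6% passed upward in TKO-Ras, 18.7% in TKO and 20.9% in Rb1KO MEFs. The median log2 fold change over the 45 genes was 1.55 in TKO-Ras, 1.59 in TKO and 1.59 in Rb1KO MEFs, against 0.11, 0.05 and 0.08 over all genes. The changes were 2-fold or more for 40 genes in TKO-Ras, 44 in TKO and 43 in Rb1KO MEFs, against 5.8%, 4.38% and 4.77% of all genes, and the largest in each mutant was that of Cdc6. The count for Rb1KO holds Tyms, which was at background in WT MEFs, and is 42 with Tyms at its bound. All arrays lay above all WT arrays for 45 of 45 genes in each mutant, as they did for 30.3% of all genes in TKO-Ras, 22.8% in TKO and 26.8% in Rb1KO MEFs. The 45 include Tyms, for which TKO-Ras replicate 2 was at background as well as the WT arrays. These 3 comparisons share the WT arrays and are therefore not independent of each other, and a larger share of cells in S phase cannot be told apart from more of each RNA per cell. Between TKO and Rb1KO and between TKO-Ras and TKO MEFs, only Dut, Pold2 and Tyms passed. For the other genes, the order of mutant arrays given below is description only.

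**Figure D1:**
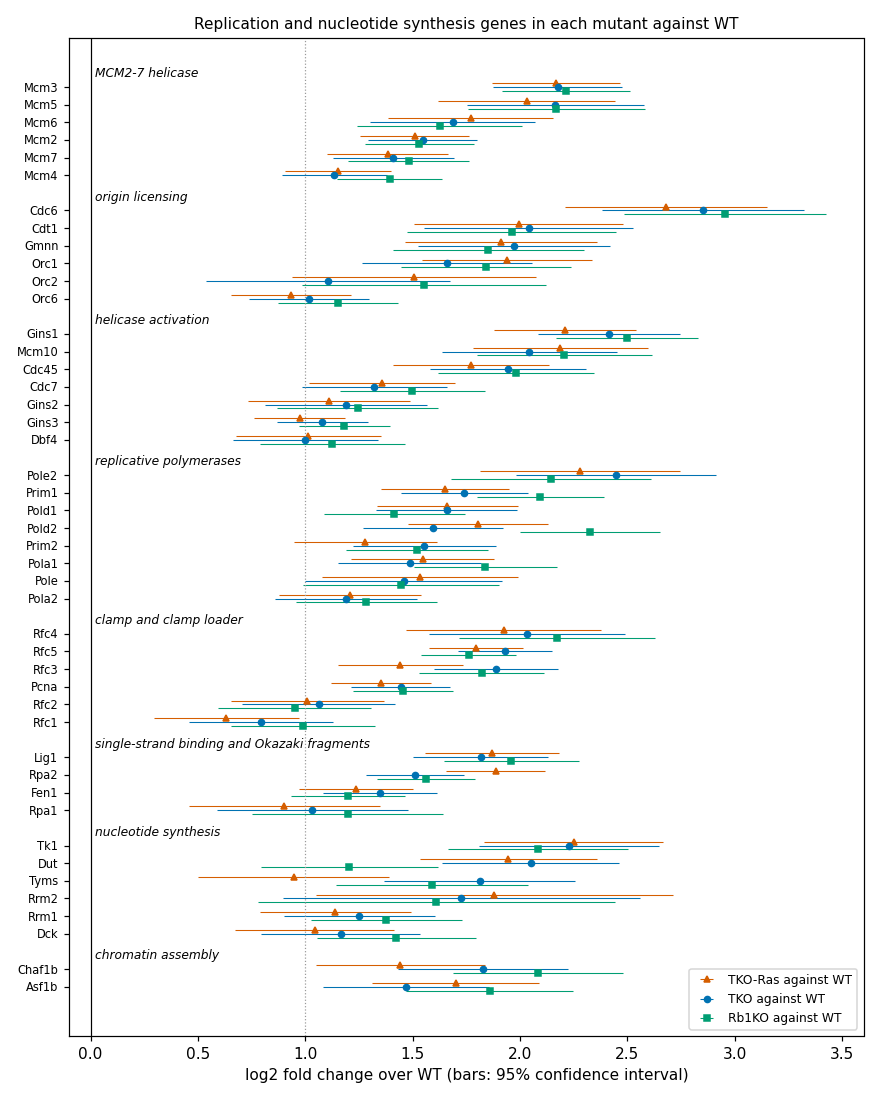
Log2 fold change of the 45 measured genes in TKO-Ras, TKO and Rb1KO MEFs over WT MEFs, grouped by complex, with the point at the estimate and the line over its 95% confidence interval from limma (3 arrays per group). All points lie above 0, from 0.63 for Rfc1 in TKO-Ras MEFs to 2.96 for Cdc6 in Rb1KO MEFs, and the 3 mutants lie close together for most genes.

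The promoters of these genes were read for the E2F motif, here any of the strings TTTCCCGC, TTTCGCGC, TTTGCCGC and TTTGGCGC on either strand within 250 bases before to 50 bases after the annotated start. Promoters from RefSeq (GRCm38.p6) were matched by symbol for 39 of the 46 genes. A match was present in 13 of 39 genes (33.3%), against 3.92% of the 13274 protein-coding genes of the array that have such a window and 3.29% of all 17492 protein-coding genes. The motif was found in 4 of 5 MCM2-7 genes (Mcm3, Mcm5, Mcm6 and Mcm7), in 3 of 5 origin licensing genes (Orc1, Cdc6 and Cdt1), in 3 of 6 polymerase genes (Pola1, Pold1 and Pole2), in Gins3, Rfc3 and Lig1, and in 0 of 6 nucleotide synthesis genes. Among other genes of the replication fork, listed further down, 10 of 30 (33.3%) held it. The CCAAT box, CCAAT on either strand, was present in 59% of the 39 genes, against 42.2% of protein-coding genes of the array. TTTGAA, the core of the cell cycle homology region that marks genes of late cell cycle phases, was present in 23.1%, against 15.4% of protein-coding genes of the array and 18.5% of all protein-coding genes. These are matches of letters and do not show binding, and a window without a match says only that these letters are not in it.

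The 8 promoters below are shown because they hold an E2F match wholly before the start. Each run is the 180 bases that end just before the annotated start, written 5′ to 3′ on the strand of the gene, with the E2F matches in capitals. A match on the opposite strand appears as its reverse complement, such as GCGGGAAA for TTTCCCGC.
Mcm5: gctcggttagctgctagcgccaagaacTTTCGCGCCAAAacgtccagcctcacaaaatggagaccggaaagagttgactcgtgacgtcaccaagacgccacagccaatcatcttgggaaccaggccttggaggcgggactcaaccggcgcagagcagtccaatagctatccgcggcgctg
Mcm6: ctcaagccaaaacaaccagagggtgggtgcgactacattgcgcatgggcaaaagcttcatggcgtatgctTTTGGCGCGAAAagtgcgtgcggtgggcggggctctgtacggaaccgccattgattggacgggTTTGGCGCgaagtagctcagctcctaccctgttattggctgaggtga
Mcm7: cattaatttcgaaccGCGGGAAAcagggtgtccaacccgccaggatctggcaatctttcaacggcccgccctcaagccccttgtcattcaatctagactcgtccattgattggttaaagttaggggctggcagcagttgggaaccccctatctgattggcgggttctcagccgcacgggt
Orc1: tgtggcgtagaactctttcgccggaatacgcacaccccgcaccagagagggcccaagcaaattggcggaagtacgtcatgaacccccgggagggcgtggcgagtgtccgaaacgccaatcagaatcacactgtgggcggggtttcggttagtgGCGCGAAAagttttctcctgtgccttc
Cdc6: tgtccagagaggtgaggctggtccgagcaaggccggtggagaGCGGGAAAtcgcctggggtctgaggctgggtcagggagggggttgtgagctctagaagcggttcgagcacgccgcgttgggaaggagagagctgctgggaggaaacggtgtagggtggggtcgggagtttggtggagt
Gins3: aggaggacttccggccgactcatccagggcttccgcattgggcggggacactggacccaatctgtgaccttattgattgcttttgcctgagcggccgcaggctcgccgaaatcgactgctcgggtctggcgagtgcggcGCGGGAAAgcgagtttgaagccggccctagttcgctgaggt
Pola1: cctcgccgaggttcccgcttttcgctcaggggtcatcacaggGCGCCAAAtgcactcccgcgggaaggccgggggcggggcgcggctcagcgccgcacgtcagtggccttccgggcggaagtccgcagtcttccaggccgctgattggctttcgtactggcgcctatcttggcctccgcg
Rfc3: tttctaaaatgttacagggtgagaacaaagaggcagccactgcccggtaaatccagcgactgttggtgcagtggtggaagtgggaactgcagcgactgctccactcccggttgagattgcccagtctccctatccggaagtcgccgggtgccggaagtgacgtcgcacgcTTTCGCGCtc
In Mcm5 and Mcm6 the capitals TTTCGCGCCAAA and TTTGGCGCGAAA hold 2 overlapping matches, 1 on each strand. The match of Cdc6, the gene with the largest change, lay at positions -138 to -131 from its start, and that of Pola1 lay at the same distance. In Orc1 it lay at -27 to -20, and in Gins3 at -41 to -34. Mcm6 held another match at -47 to -40. Of the 19 matches in all 13 genes, 4 (21.1%) began 1 to 100 bases before the start, against 36.8% of 642 matches in protein-coding genes. These 8 runs lie at chr8:75109329-75109508 on the plus strand (Mcm5), chr1:128359706-128359885 on the minus strand (Mcm6), chr5:138171884-138172063 on the minus strand (Mcm7), chr4:108579274-108579453 on the plus strand (Orc1), chr11:98907971-98908150 on the plus strand (Cdc6), chr8:95633379-95633558 on the plus strand (Gins3), chrX:93632156-93632335 on the minus strand (Pola1) and chr5:151651209-151651388 on the minus strand (Rfc3). The other 5 genes with a match (Mcm3, Cdt1, Lig1, Pold1 and Pole2) held theirs only at or after the start.

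**Figure D2:**
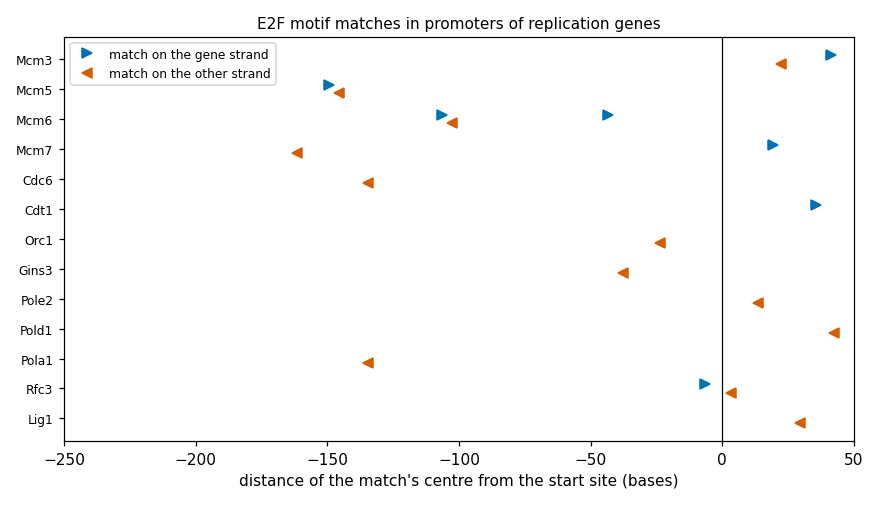
Position of the 19 E2F motif matches in the promoters of 13 replication genes, with the distance from the annotated start in bases on the horizontal axis (0 is the first transcribed base) and 1 row per gene. Of the 13 genes, 8 have a match wholly before the start and 5 only at or after it.

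All 6 subunits of the MCM2-7 helicase, the ring that opens DNA ahead of the fork, rose in all 3 mutants, and the median over them was 1.64 on the log2 scale in TKO-Ras, 1.62 in TKO and 1.58 in Rb1KO MEFs over WT. Mcm3 had the largest change of the ring in TKO MEFs, with log2 levels of 11.19, 11.23 and 10.97 on the TKO-Ras arrays, 11.06, 11.22 and 11.12 on the TKO arrays and 11.19, 11.15 and 11.19 on the Rb1KO arrays, against 9.26, 8.94 and 8.67 on the WT arrays. Its 9 mutant arrays lay close together and above all WT arrays. Mcm3 rose over WT by 2.17 in TKO-Ras, 2.18 in TKO and 2.21 in Rb1KO MEFs on the log2 scale (standard error 0.137, adjusted p = 9.7e-07, 1.9e-06 and 1.7e-06 from limma), or 4.50-fold, 4.52-fold and 4.64-fold. Mcm5 had log2 levels of 11.98, 12.03 and 11.98 on the TKO-Ras arrays, 12.14, 12.04 and 12.20 on the TKO arrays and 12.21, 12 and 12.18 on the Rb1KO arrays, against 10.43, 9.99 and 9.47 on the WT arrays. The WT arrays spread more widely than those of the mutants, and WT replicate 1 was the highest of them. Mcm5 rose over WT by 2.03 in TKO-Ras, 2.16 in TKO and 2.17 in Rb1KO MEFs on the log2 scale (standard error 0.188, adjusted p = 1.6e-05, 1.8e-05 and 1.5e-05). The smallest change in TKO MEFs was that of Mcm4, with log2 levels of 11.94, 12.01 and 12.04 on the TKO-Ras arrays, 11.96, 11.99 and 11.98 on the TKO arrays and 12.16, 12.17 and 12.37 on the Rb1KO arrays, against 11.06, 10.82 and 10.64 on the WT arrays. Here the 3 Rb1KO arrays lay above all TKO-Ras and TKO arrays. Mcm4 rose over WT by 1.15 in TKO-Ras, 1.14 in TKO and 1.39 in Rb1KO MEFs on the log2 scale (adjusted p = 2.2e-05, 4.4e-05 and 9.3e-06). Mcm2, Mcm6 and Mcm7 changed by between 1.38 and 1.77 in TKO-Ras, 1.41 and 1.69 in TKO and 1.48 and 1.63 in Rb1KO MEFs on the log2 scale.

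The 6 genes of origin licensing had the highest median of the complexes in TKO-Ras and TKO MEFs, 1.93 and 1.82 over WT, with 1.85 in Rb1KO MEFs. Cdc6, the loader that brings MCM2-7 to the origin recognition complex, had log2 levels of 9.84, 9.58 and 9.77 on the TKO-Ras arrays, 9.97, 9.81 and 9.94 on the TKO arrays and 10.05, 9.85 and 10.11 on the Rb1KO arrays, against 7.42, 7.31 and 6.42 on the WT arrays. No other gene of the set moved as far, and WT replicate 3 was lower than the other WT arrays. Cdc6 rose over WT by 2.68 in TKO-Ras, 2.85 in TKO and 2.96 in Rb1KO MEFs on the log2 scale (standard error 0.215, adjusted p = 5.6e-06, 7.0e-06 and 4.9e-06 from limma), or 6.40-fold, 7.22-fold and 7.76-fold. Cdt1, which acts with Cdc6 in loading, had log2 levels of 11.71, 12.55 and 11.98 on the TKO-Ras arrays, 11.95, 12 and 12.41 on the TKO arrays and 12.07, 11.89 and 12.18 on the Rb1KO arrays, against 10.44, 9.96 and 9.85 on the WT arrays. TKO-Ras replicate 2 was its highest array, and all mutant arrays exceeded the WT arrays. Cdt1 rose over WT by 1.99 in TKO-Ras, 2.04 in TKO and 1.96 in Rb1KO MEFs on the log2 scale (adjusted p = 5.8e-05, 8.3e-05 and 8.8e-05). Gmnn (geminin), the inhibitor of Cdt1, rose alongside it, by 1.91 in TKO-Ras, 1.97 in TKO and 1.85 in Rb1KO MEFs on the log2 scale (adjusted p = 4.3e-05, 5.9e-05 and 7.2e-05). Of the origin recognition complex, Orc1 rose by 1.94 in TKO-Ras, 1.66 in TKO and 1.84 in Rb1KO MEFs and Orc2 by 1.51 in TKO-Ras, 1.11 in TKO and 1.55 in Rb1KO MEFs. With the mean of its probe sets Orc1 rose less, by 1.21 in TKO-Ras, 0.93 in TKO and 1.13 in Rb1KO MEFs, and still passed. The subunit Orc6 changed least, with log2 levels of 9.98, 10.11 and 10.09 on the TKO-Ras arrays, 10.18, 10.22 and 10.03 on the TKO arrays and 10.30, 10.38 and 10.15 on the Rb1KO arrays, against 9.40, 8.92 and 9.05 on the WT arrays. The TKO arrays overlapped with both other mutants, the Rb1KO arrays lay above the TKO-Ras arrays, and all lay above WT MEFs. Orc6 rose over WT by 0.93 in TKO-Ras, 1.02 in TKO and 1.15 in Rb1KO MEFs on the log2 scale (adjusted p = 0.00024, 0.00021 and 7.4e-05), which is under 2-fold in TKO-Ras MEFs.

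The 7 genes of helicase activation also rose in every mutant, with a median of 1.36 in TKO-Ras, 1.32 in TKO and 1.5 in Rb1KO MEFs over WT on the log2 scale. Gins1, a subunit of the GINS part of the moving helicase, had log2 levels of 10.05, 10.35 and 10 on the TKO-Ras arrays, 10.42, 10.36 and 10.23 on the TKO arrays and 10.45, 10.31 and 10.51 on the Rb1KO arrays, against 8.17, 8.01 and 7.59 on the WT arrays. The gap between its WT arrays and all others exceeded the spread within any group. Gins1 rose over WT by 2.21 in TKO-Ras, 2.41 in TKO and 2.5 in Rb1KO MEFs on the log2 scale (standard error 0.151, adjusted p = 1.7e-06, 1.9e-06 and 1.5e-06 from limma), or 4.63-fold, 5.33-fold and 5.66-fold. Gins2 and Gins3, subunits of the same complex, changed less, by 1.11 in TKO-Ras, 1.19 in TKO and 1.24 in Rb1KO MEFs and by 0.97 in TKO-Ras, 1.08 in TKO and 1.18 in Rb1KO MEFs. Mcm10, needed to start the assembled helicase, had log2 levels of 9.54, 9.39 and 9.40 on the TKO-Ras arrays, 9.29, 9.16 and 9.46 on the TKO arrays and 9.56, 9.37 and 9.46 on the Rb1KO arrays, against 7.73, 7.22 and 6.82 on the WT arrays. The mutant groups overlapped and the WT arrays spread over a wider range. Mcm10 rose over WT by 2.19 in TKO-Ras, 2.04 in TKO and 2.21 in Rb1KO MEFs on the log2 scale (adjusted p = 8.5e-06, 2.6e-05 and 1.3e-05). Cdc45, which binds MCM2-7 and GINS, rose by 1.77 in TKO-Ras, 1.94 in TKO and 1.98 in Rb1KO MEFs. The kinase subunit Cdc7 rose by 1.36 in TKO-Ras, 1.32 in TKO and 1.5 in Rb1KO MEFs, and its activator Dbf4 had the smallest change of these genes in TKO and Rb1KO MEFs, with log2 levels of 11.17, 11.13 and 11.16 on the TKO-Ras arrays, 11.12, 11.15 and 11.15 on the TKO arrays and 11.26, 11.35 and 11.20 on the Rb1KO arrays, against 10.49, 10.20 and 9.73 on the WT arrays. The TKO-Ras and TKO arrays of Dbf4 were almost level, and the Rb1KO arrays lay slightly above them. Dbf4 rose over WT by 1.01 in TKO-Ras, 1.0 in TKO and 1.13 in Rb1KO MEFs on the log2 scale (adjusted p = 0.00052, 0.00087 and 0.00032). Averaged over their probe sets, the changes were over 1.5 times smaller in fold for Gins1 (1.33 in TKO-Ras, 1.53 in TKO and 1.59 in Rb1KO MEFs), Mcm10 (1.22, 1.15 and 1.36) and Cdc45 (1.08, 1.02 and 1.15). Probe sets without a suffix gave Mcm10 0.84, 0.88 and 1.11, and all of these still passed.

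The 8 genes of the replicative polymerases rose together, by a median of 1.60 on the log2 scale in TKO-Ras, 1.57 in TKO and 1.68 in Rb1KO MEFs over WT. Pole2, a subunit of the leading strand polymerase epsilon, led them in TKO-Ras and TKO MEFs with log2 levels of 10.62, 10.66 and 10.50 on the TKO-Ras arrays, 10.84, 10.75 and 10.70 on the TKO arrays and 10.61, 10.19 and 10.59 on the Rb1KO arrays, against 8.45, 8.75 and 7.75 on the WT arrays. The TKO arrays were the highest, and the WT arrays lay well below. Pole2 rose over WT by 2.28 in TKO-Ras, 2.45 in TKO and 2.14 in Rb1KO MEFs on the log2 scale (standard error 0.212, adjusted p = 1.7e-05, 1.8e-05 and 3.6e-05 from limma), or 4.86-fold, 5.45-fold and 4.42-fold, while its catalytic partner Pole rose by 1.53 in TKO-Ras, 1.46 in TKO and 1.45 in Rb1KO MEFs. Prim1, the catalytic subunit of the primase that lays down RNA primers, had log2 levels of 10.67, 10.97 and 10.74 on the TKO-Ras arrays, 11.04, 10.84 and 10.78 on the TKO arrays and 11.24, 11.20 and 11.29 on the Rb1KO arrays, against 9.43, 9.07 and 8.94 on the WT arrays. Its Rb1KO arrays lay above those of the other mutants. Prim1 rose over WT by 1.65 in TKO-Ras, 1.74 in TKO and 2.09 in Rb1KO MEFs on the log2 scale (adjusted p = 6.6e-06, 8.7e-06 and 2.2e-06), and that of its partner Prim2 was 1.28 in TKO-Ras, 1.55 in TKO and 1.52 in Rb1KO MEFs. Of polymerase alpha, which extends the primers, Pola1 rose by 1.55 in TKO-Ras, 1.49 in TKO and 1.84 in Rb1KO MEFs and Pola2 by the least of the 8 genes, with log2 levels of 9.32, 9.26 and 9.26 on the TKO-Ras arrays, 9.27, 9.19 and 9.33 on the TKO arrays and 9.52, 9.21 and 9.34 on the Rb1KO arrays, against 8.31, 7.69 and 8.22 on the WT arrays. All 3 mutant groups of Pola2 overlapped. Pola2 rose over WT by 1.21 in TKO-Ras, 1.19 in TKO and 1.28 in Rb1KO MEFs on the log2 scale (adjusted p = 0.00013, 0.00023 and 0.00011). Of the lagging strand polymerase delta, the catalytic Pold1 rose by 1.66 in TKO-Ras, 1.66 in TKO and 1.41 in Rb1KO MEFs, and Pold2, which also differed between mutants, is given below. Averaged over their probe sets, the changes over WT were smaller for Pole2 (1.41 in TKO-Ras, 1.39 in TKO and 1.27 in Rb1KO MEFs), Pola1 (0.87, 0.79 and 0.99) and Pola2 (0.66, 0.46 and 0.68), and all still passed.

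Pcna, the sliding clamp, had log2 levels of 13.53, 13.55 and 13.52 on the TKO-Ras arrays, 13.61, 13.62 and 13.64 on the TKO arrays and 13.72, 13.55 and 13.64 on the Rb1KO arrays, against 12.35, 12.24 and 11.95 on the WT arrays. The 3 TKO arrays lay within 13.61 to 13.64 and above the TKO-Ras arrays, and all mutant arrays lay above WT. Pcna rose over WT by 1.35 in TKO-Ras, 1.44 in TKO and 1.46 in Rb1KO MEFs on the log2 scale (standard error 0.106, adjusted p = 4.7e-06, 5.7e-06 and 4.9e-06 from limma). The 5 subunits of replication factor C, which opens the clamp and places it on DNA, did not change alike. Rfc4 had log2 levels of 10.38, 11.17 and 10.52 on the TKO-Ras arrays, 10.96, 10.78 and 10.65 on the TKO arrays and 10.89, 10.93 and 10.99 on the Rb1KO arrays, against 8.91, 8.38 and 9.0 on the WT arrays. TKO-Ras replicate 2 stood above the other TKO-Ras arrays, and no mutant array reached the WT range. Rfc4 rose over WT by 1.92 in TKO-Ras, 2.03 in TKO and 2.17 in Rb1KO MEFs on the log2 scale (adjusted p = 4.7e-05, 5.5e-05 and 2.8e-05), or 3.80-fold, 4.09-fold and 4.51-fold. Rfc5 had log2 levels of 10.68, 10.77 and 10.68 on the TKO-Ras arrays, 10.87, 10.79 and 10.87 on the TKO arrays and 10.77, 10.53 and 10.73 on the Rb1KO arrays, against 9.08, 8.84 and 8.82 on the WT arrays. Its lowest TKO array (10.79) lay just above the highest TKO-Ras and Rb1KO arrays (10.77 each), and neither difference passed. Rfc5 rose over WT by 1.79 in TKO-Ras, 1.93 in TKO and 1.76 in Rb1KO MEFs on the log2 scale (standard error 0.100, adjusted p = 4.2e-07, 4.9e-07 and 1.0e-06). Rfc1, the large subunit, had the smallest change of all 45 genes in TKO-Ras and TKO MEFs, with log2 levels of 9.96, 9.97 and 9.80 on the TKO-Ras arrays, 10.04, 9.97 and 10.20 on the TKO arrays and 10.36, 10.10 and 10.33 on the Rb1KO arrays, against 9.35, 8.91 and 9.56 on the WT arrays. The groups still did not overlap with WT. Rfc1 rose over WT by 0.63 in TKO-Ras, 0.79 in TKO and 0.99 in Rb1KO MEFs on the log2 scale (adjusted p = 0.0094, 0.0036 and 0.00072), under 2-fold in each mutant. Rfc2 changed by 1.01 in TKO-Ras, 1.06 in TKO and 0.95 in Rb1KO MEFs and Rfc3 by 1.44 in TKO-Ras, 1.89 in TKO and 1.82 in Rb1KO MEFs. The median over the clamp and its loader was 1.40 in TKO-Ras, 1.67 in TKO and 1.61 in Rb1KO MEFs.

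The 4 genes that coat single-stranded DNA and finish Okazaki fragments, the short pieces of the lagging strand, rose by a median of 1.55 on the log2 scale in TKO-Ras, 1.43 in TKO and 1.38 in Rb1KO MEFs over WT. Lig1, the ligase that seals the fragments, had log2 levels of 11.24, 11.09 and 10.89 on the TKO-Ras arrays, 10.97, 10.88 and 11.21 on the TKO arrays and 11.35, 10.89 and 11.26 on the Rb1KO arrays, against 9.24, 9.27 and 9.11 on the WT arrays. Its WT arrays were close together, and the mutant groups overlapped. Lig1 rose over WT by 1.87 in TKO-Ras, 1.82 in TKO and 1.96 in Rb1KO MEFs on the log2 scale (standard error 0.143, adjusted p = 4.1e-06, 9.4e-06 and 5.0e-06 from limma), or 3.65-fold, 3.52-fold and 3.89-fold. Fen1, the nuclease that trims the fragments, rose by 1.23 in TKO-Ras, 1.35 in TKO and 1.20 in Rb1KO MEFs. Rpa2, a subunit of the protein that coats single strands, had log2 levels of 10.71, 10.45 and 10.49 on the TKO-Ras arrays, 10.14, 10.16 and 10.22 on the TKO arrays and 10.35, 10.08 and 10.25 on the Rb1KO arrays, against 8.76, 8.61 and 8.62 on the WT arrays. The TKO-Ras arrays were above all TKO and Rb1KO arrays. Rpa2 rose over WT by 1.89 in TKO-Ras, 1.51 in TKO and 1.56 in Rb1KO MEFs on the log2 scale (standard error 0.104, adjusted p = 3.8e-07, 3.7e-06 and 2.7e-06). The large subunit Rpa1 had log2 levels of 12.52, 12.61 and 12.53 on the TKO-Ras arrays, 12.71, 12.55 and 12.79 on the TKO arrays and 12.86, 12.82 and 12.85 on the Rb1KO arrays, against 11.94, 11.97 and 11.04 on the WT arrays. WT replicate 3 stood below the other WT arrays. Rpa1 rose over WT by 0.90 in TKO-Ras, 1.03 in TKO and 1.20 in Rb1KO MEFs on the log2 scale (adjusted p = 0.0061, 0.0039 and 0.0013).

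The 6 genes that make deoxynucleotides rose by a median of 1.51 on the log2 scale in TKO-Ras, 1.77 in TKO and 1.51 in Rb1KO MEFs over WT. Tk1, the thymidine kinase of dividing cells, had log2 levels of 11.20, 11.34 and 11.16 on the TKO-Ras arrays, 11.33, 11.09 and 11.22 on the TKO arrays and 11.21, 10.91 and 11.08 on the Rb1KO arrays, against 9.29, 9.21 and 8.45 on the WT arrays. WT replicate 3 was the lowest array, and the mutant groups overlapped. Tk1 rose over WT by 2.25 in TKO-Ras, 2.23 in TKO and 2.08 in Rb1KO MEFs on the log2 scale (standard error 0.190, adjusted p = 8.3e-06, 1.7e-05 and 2.1e-05 from limma), or 4.75-fold, 4.69-fold and 4.24-fold. Dck, the kinase that salvages deoxycytidine, had the smallest change of the 6 in TKO MEFs, with log2 levels of 11.38, 11.50 and 11.27 on the TKO-Ras arrays, 11.39, 11.56 and 11.57 on the TKO arrays and 11.76, 11.81 and 11.72 on the Rb1KO arrays, against 10.71, 10.42 and 9.90 on the WT arrays. The Rb1KO arrays were the highest here. Dck rose over WT by 1.04 in TKO-Ras, 1.17 in TKO and 1.42 in Rb1KO MEFs on the log2 scale (adjusted p = 0.00080, 0.00060 and 0.00012). Rrm1 and Rrm2 form ribonucleotide reductase, which turns ribonucleotides into deoxynucleotides. Rrm1 rose by 1.14 in TKO-Ras, 1.25 in TKO and 1.38 in Rb1KO MEFs. Rrm2 had log2 levels of 12.95, 12.96 and 13.02 on the TKO-Ras arrays, 12.88, 12.78 and 12.81 on the TKO arrays and 12.66, 12.75 and 12.71 on the Rb1KO arrays, against 11.71, 11.72 and 9.85 on the WT arrays. WT replicate 3 alone stood far below the other WT arrays, while the 9 mutant arrays were close together. Rrm2 rose over WT by 1.88 in TKO-Ras, 1.73 in TKO and 1.61 in Rb1KO MEFs on the log2 scale (standard error 0.379, adjusted p = 0.0033, 0.0077 and 0.0096). Without WT replicate 3 it was 1.26 in TKO-Ras, 1.11 in TKO and 0.99 in Rb1KO MEFs and still passed, and no other gene of the set moved by over 1.5 times when a WT array was left out.

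Thymidylate synthase, which makes the thymidine nucleotide from its uridine counterpart, was read at low levels. The probe set used for Tyms had log2 levels of 5.57, 4.83 and 5.46 on the TKO-Ras arrays, 6.16, 6.36 and 5.94 on the TKO arrays and 6.08, 5.97 and 5.73 on the Rb1KO arrays, against 4.52, 4.46 and 4.04 on the WT arrays. It was at background on every WT array, and TKO-Ras replicate 2 was at background as well. Tyms was therefore at least 1.11-fold higher in TKO-Ras, at least 2.02-fold in TKO and at least 1.73-fold in Rb1KO MEFs than in WT MEFs (adjusted p = 0.0048, 0.00010 and 0.00020 from limma), counted from the background level. Its other 3 probe sets lay at or near background in every group, and with the mean of all 4 the log2 fold change was 0.60 in TKO and 0.47 in Rb1KO MEFs and still passed.

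Behind the fork, the 2 measured genes of chromatin assembly rose as well. Chaf1b, a subunit of the chaperone that sets down new histones, had log2 levels of 9.70, 9.35 and 9.43 on the TKO-Ras arrays, 9.77, 9.70 and 10.17 on the TKO arrays and 10.41, 9.81 and 10.18 on the Rb1KO arrays, against 8.26, 7.87 and 8.02 on the WT arrays. The TKO-Ras arrays tended to be the lowest of the mutants but overlapped with TKO. Chaf1b rose over WT by 1.44 in TKO-Ras, 1.83 in TKO and 2.08 in Rb1KO MEFs on the log2 scale (standard error 0.180, adjusted p = 0.00013, 4.4e-05 and 1.5e-05 from limma). With the mean of its probe sets Chaf1b rose by 0.94 in TKO and 1.20 in Rb1KO MEFs and still passed. Asf1b, a histone chaperone of dividing cells, had log2 levels of 10.20, 9.98 and 10.08 on the TKO-Ras arrays, 9.81, 9.70 and 10.06 on the TKO arrays and 10.41, 10.06 and 10.27 on the Rb1KO arrays, against 8.73, 8.45 and 7.98 on the WT arrays. Its highest TKO array (10.063) was almost level with its lowest Rb1KO array (10.065). Asf1b rose over WT by 1.70 in TKO-Ras, 1.47 in TKO and 1.86 in Rb1KO MEFs on the log2 scale (adjusted p = 3.7e-05, 0.00017 and 2.7e-05).

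**Figure D3:**
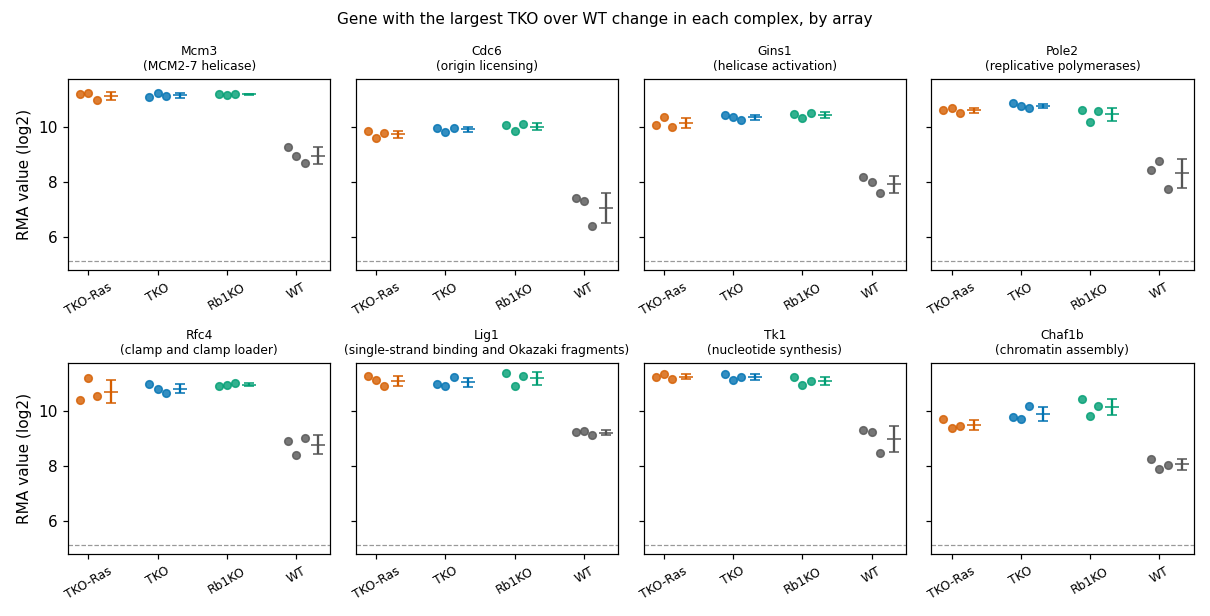
Log2 level on each of the 12 arrays for the gene with the largest change in TKO MEFs of each complex, with 1 panel per gene, groups from left to right TKO-Ras, TKO, Rb1KO and WT, bars at the group mean with its SD (n = 3), and background dashed. Levels of different genes come from different probes and are not comparable, and within each panel every WT point lies below every mutant point.

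Few of these genes passed between TKO and Rb1KO MEFs, and few of all genes did. Only Dut passed upward (5.92% of all genes did) and only Pold2 downward (3.63%), and 43 of 45 genes did not pass. These counts are near the shares over all genes and so are not particular to this set. The median log2 fold change was -0.07, against -0.03 over all genes, and the arrays of both groups did not overlap for 14 of 45 genes, against 34.3% of all genes. For 42 of the 45 genes the 95% confidence interval of the difference lay within 2-fold in either direction, the others being Orc2, Pold2 and Dut. The share of all genes for which this holds was not counted. An unadjusted p under 0.05 was found for 6 genes. Rbl1 was at background on the TKO arrays and 8.32 to 9.0 on the Rb1KO arrays, and Rbl2 lay at 5.27 to 5.71 on the TKO arrays, above the Rb1KO arrays (3.80 to 4.47).

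Dut splits dUTP and so keeps uracil out of DNA. It had log2 levels of 12.05, 12.46 and 11.81 on the TKO-Ras arrays, 12.19, 12.33 and 12.11 on the TKO arrays and 11.44, 11.33 and 11.33 on the Rb1KO arrays, against 10.54, 10.11 and 9.83 on the WT arrays. The Rb1KO arrays lay between WT and the other mutants, without overlap. The log2 fold change was 0.84 for TKO against Rb1KO (standard error 0.187, 95% confidence interval 0.43 to 1.26, adjusted p = 0.019 from limma), a difference of 1.80-fold. Over WT, Dut rose by 1.95 in TKO-Ras, 2.05 in TKO and 1.21 in Rb1KO MEFs (adjusted p = 2.1e-05, 2.7e-05 and 0.00076). Read from its dimmer probe set, the one without a suffix, it rose by 1.18 in TKO-Ras MEFs. That probe set was at background on every WT array (4.66 to 5.06), which limits this change. Between TKO and Rb1KO MEFs it differed in the same direction as the one used, by 0.65 (adjusted p = 0.047 from limma). Pold2, an accessory subunit of polymerase delta, had log2 levels of 10.62, 10.72 and 10.46 on the TKO-Ras arrays, 10.62, 10.27 and 10.28 on the TKO arrays and 11.28, 10.96 and 11.13 on the Rb1KO arrays, against 8.97, 8.53 and 8.89 on the WT arrays. All Rb1KO arrays were above those of the other mutants. The log2 fold change was -0.73 for TKO against Rb1KO (standard error 0.149, 95% confidence interval -1.06 to -0.41, adjusted p = 0.011), and over WT it was 1.80 in TKO-Ras, 1.59 in TKO and 2.33 in Rb1KO MEFs (adjusted p = 6.9e-06, 3.0e-05 and 2.1e-06). The call of Dut was lost without moderation of the variance (adjusted p = 0.058), and leaving out 1 array ended the call of Dut in 4 cases (Rb1KO replicate 2 or 3, TKO replicate 1 or 2; adjusted p = 0.051 to 0.079) and that of Pold2 in 2 (Rb1KO replicate 1, TKO replicate 2; 0.054 each). A further 4 genes had an unadjusted p under 0.05 without passing, each lower in TKO than in Rb1KO MEFs, by limma: Prim1 (-0.35, adjusted p = 0.16), Pola1 (-0.35, 0.22), Mcm4 (-0.26, 0.22) and Asf1b (-0.39, 0.25).

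Few of these genes passed between TKO-Ras and TKO MEFs, and few of all genes did. In TKO-Ras against TKO MEFs 0 of 45 genes were higher (3.19% of all genes were), 1 was lower (4.17%), and 44 did not pass. These counts are near the shares over all genes and so are not particular to this set. Without the adjustment 3 genes had p under 0.05. The median log2 fold change was -0.06, against 0.04 over all genes. The confidence interval lay within 2-fold for 44 genes, and the share of all genes for which this holds was not counted. The gene that passed was Tyms, whose values are given above, with a log2 fold change of -0.87 (standard error 0.203, 95% confidence interval -1.31 to -0.42, adjusted p = 0.030 from limma). The level of Tyms is close to background, and its call was lost without moderation (adjusted p = 0.082), with only these groups in the fit (0.052), with the mean of its probe sets (-0.13, adjusted p = 0.61) and without TKO replicate 1 or 2 or TKO-Ras replicate 2 or 3 (0.056 to 0.12). Rpa2 differed in the other direction, by 0.38 (95% confidence interval 0.15 to 0.61, adjusted p = 0.061), and Rfc3 by -0.45 (-0.74 to -0.16, adjusted p = 0.080). Neither passed. Each did under other settings, Rpa2 after cyclic loess or a filter on dim probe sets (adjusted p = 0.048 in both) and Rfc3 with the mean of its probe sets (0.047) or without TKO-Ras replicate 2 (0.039).

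**Figure D4:**
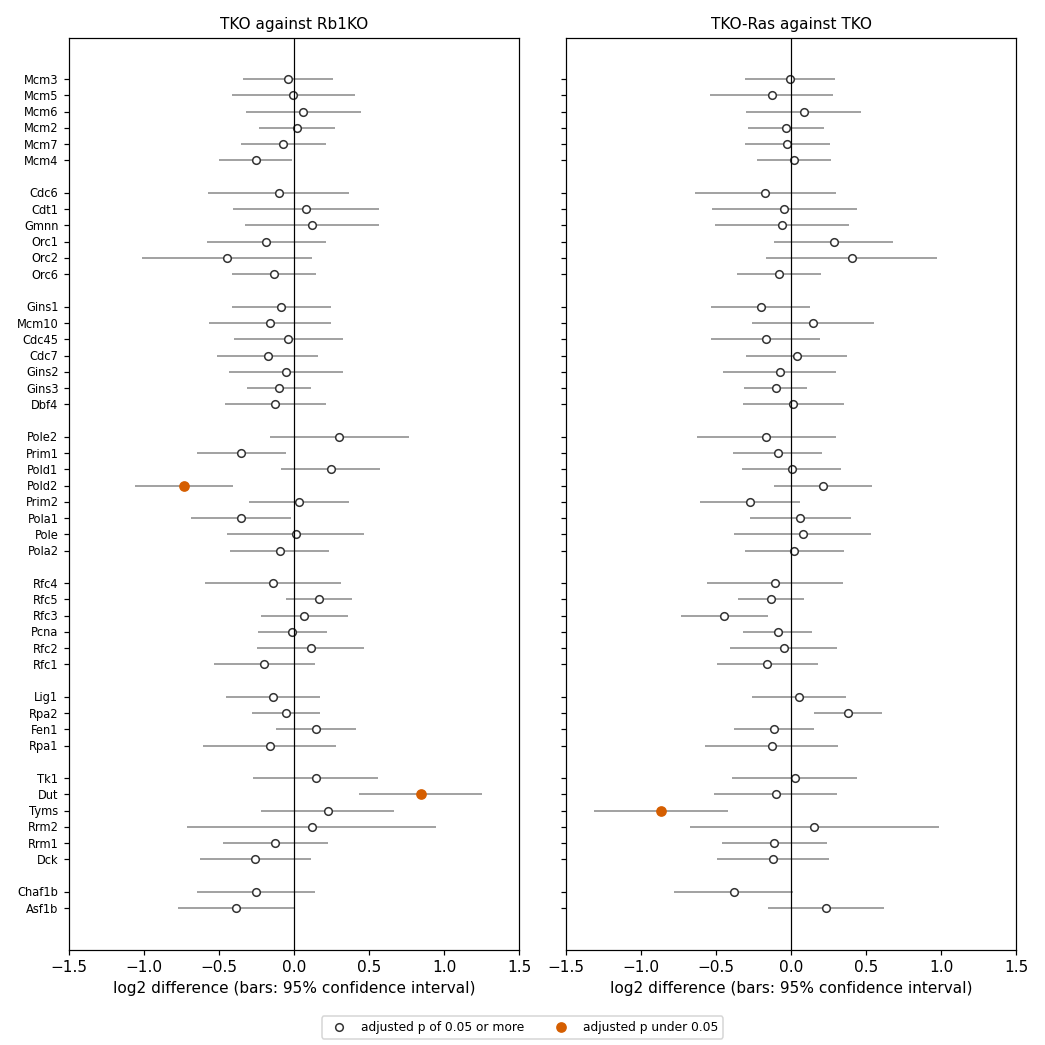
Log2 fold change of the 45 genes for TKO against Rb1KO MEFs and for TKO-Ras against TKO MEFs, with the 95% confidence interval from limma, and filled points for genes past an adjusted p of 0.05. Dut (0.84) and Pold2 (-0.73) stand apart in TKO against Rb1KO and Tyms (-0.87) in TKO-Ras against TKO, while most other intervals hold 0.

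The WT arrays differed among themselves more than the mutant arrays did. The median standard deviation of the 45 genes was 0.135 in TKO-Ras, 0.103 in TKO and 0.120 in Rb1KO MEFs, against 0.327 in WT MEFs. Over all genes above background it was 0.151, 0.142 and 0.138 in the mutants, against 0.198 in WT MEFs. The limma fit gives a gene the same spread in all 4 groups. Its standard errors and p-values therefore treat the WT arrays as spreading like the mutant arrays. Set against each gene's mean over the 12 arrays, the median deviation of the 45 genes was 0.32, 0.45 and 0.28 on the TKO-Ras arrays, 0.37, 0.37 and 0.42 on the TKO arrays and 0.50, 0.36 and 0.46 on the Rb1KO arrays, against -0.91, -1.28 and -1.40 on the WT arrays. WT replicate 1 was the highest WT array for 37 of 45 genes and WT replicate 3 the lowest for 34. Genes of mitosis moved the same way. The median deviation of 19 mitosis genes (such as Aurkb, Birc5 and Mki67) lay between 0.13 and 0.47 on the mutant arrays, against -0.63, -0.72 and -1.14 on the WT arrays, and 19, 17 and 18 of the 19 were higher in TKO-Ras, TKO and Rb1KO MEFs than in WT, against 19.4%, 13.6% and 15.6% of all genes. Cells were harvested in exponential growth, the part that a different share of dividing cells had in the differences was not tested, and without WT replicate 3 all 45 genes still passed in each mutant, with a median of 1.43 on the log2 scale in TKO-Ras, 1.46 in TKO and 1.44 in Rb1KO MEFs.

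**Figure D5:**
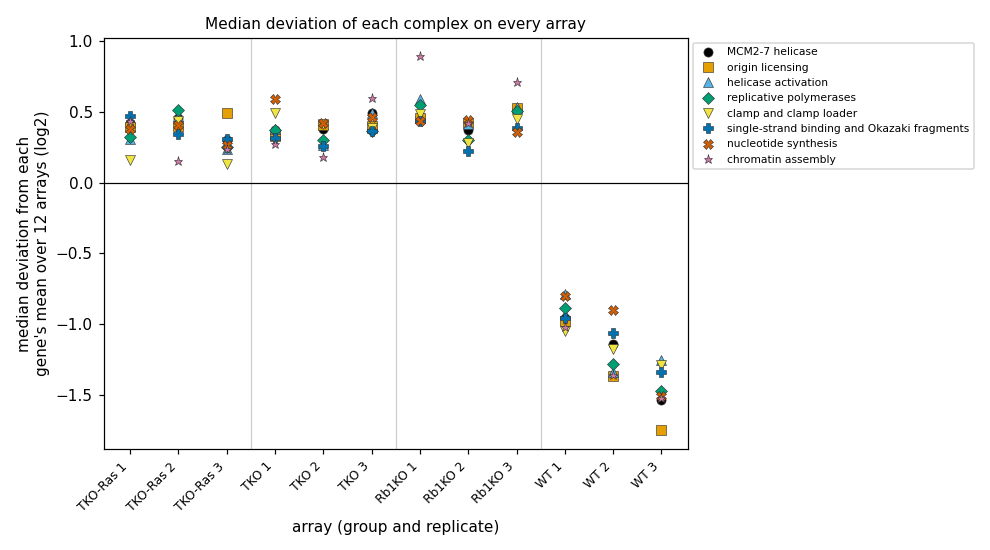
Median deviation from each gene's mean over the 12 arrays (log2), with the 12 arrays on the horizontal axis in the order TKO-Ras, TKO, Rb1KO and WT and a symbol for each complex. Every complex lies above 0 on the 9 mutant arrays and below 0 on the 3 WT arrays. Within groups, the WT arrays differ from each other more than those of any mutant, except for the clamp and its loader.

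Of the 45 genes, 35 have further probe sets, 54 in all. In TKO against WT MEFs 39 of the 54 were higher, 0 lower and 15 did not pass. Of those 15, 10 were at background in both groups and 2 in 1 of them, and the remaining 3 belong to Cdc45, Orc1 and Prim2. In Rb1KO against WT 41 and in TKO-Ras against WT 44 of the 54 gave the same call as the probe set used, and none gave the opposite call. A dimmer probe set of Mcm5 was lower in TKO-Ras than in TKO MEFs (log2 fold change -0.64, adjusted p = 0.034 from limma), whereas the one used did not pass (-0.13).

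Other genes of the replication fork mostly moved with the set. Of 37 listed, 36 were measured, and 30 were higher and 0 lower in TKO-Ras, 31 and 1 in TKO and 31 and 1 in Rb1KO MEFs than in WT, with a median log2 fold change of 1.23, 1.22 and 1.17 (over all genes 19.4%, 13.6% and 15.6% were higher and 14.3%, 9.9% and 12.3% lower). Dscc1, part of an alternative clamp loader that acts in sister chromatid cohesion, changed most, by 2.58 in TKO-Ras, 3.68 in TKO and 2.95 in Rb1KO MEFs (standard error 0.172, adjusted p = 1.5e-06, 2.5e-07 and 1.1e-06 from limma). It also separated the mutants, by 0.73 on the log2 scale for TKO against Rb1KO MEFs (adjusted p = 0.025) with a log2 difference of -1.10 between TKO-Ras and TKO MEFs (adjusted p = 0.0037). Uhrf1, which passes on DNA methylation at the fork, rose by 2.14 in TKO-Ras, 2.17 in TKO and 2.12 in Rb1KO MEFs, the helicase Recql4 by 1.74 in TKO-Ras, 1.99 in TKO and 1.63 in Rb1KO MEFs and the chromatin remodeller Hells by 1.86 in TKO-Ras, 1.92 in TKO and 1.55 in Rb1KO MEFs. Pold4, the small subunit of polymerase delta, went the other way. Its mean log2 level was 9.17 in TKO-Ras, 8.15 in TKO and 7.88 in Rb1KO MEFs, against 8.85 in WT MEFs. The log2 fold change over WT was -0.69 in TKO (adjusted p = 0.0051) and -0.97 in Rb1KO MEFs (adjusted p = 0.00051), while in TKO-Ras MEFs it was 0.33 and did not pass (adjusted p = 0.11). Pold4 was higher in TKO-Ras than in TKO MEFs, by 1.02 (adjusted p = 0.0016). Orc4, Top1, Chtf8 and Rnaseh2c did not pass in TKO against WT MEFs, and Rnaseh2c and Chtf18 were lower in TKO than in Rb1KO MEFs (-0.75 and -0.61).

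Nucleotide synthesis outside the set was mixed. Of 22 listed genes 19 were measured, and 11 were higher and 1 lower in TKO-Ras, 9 and 0 in TKO and 9 and 0 in Rb1KO MEFs than in WT, with a median log2 fold change of 0.75, 0.62 and 0.75, beside the same shares over all genes (19.4%, 13.6% and 15.6% higher, 14.3%, 9.9% and 12.3% lower). Shmt1, which supplies the folate carbon used by thymidylate synthase, rose most, by 2.27 in TKO-Ras, 2.01 in TKO and 2.97 in Rb1KO MEFs (standard error 0.156, adjusted p = 1.8e-06, 8.5e-06 and 5.3e-07 from limma). It fell by 0.96 on the log2 scale in TKO relative to Rb1KO MEFs (adjusted p = 0.0030). Dctpp1, which removes surplus deoxycytidine triphosphate, rose by 1.64 in TKO-Ras, 1.47 in TKO and 1.94 in Rb1KO MEFs and Umps, of pyrimidine synthesis, by 1.06 in TKO-Ras, 1.06 in TKO and 1.43 in Rb1KO MEFs. Cda, which deaminates cytidine, rose by 1.78 in TKO-Ras MEFs (adjusted p = 0.0025 from limma). It had 1.07 in TKO MEFs (adjusted p = 0.050, at the threshold) and -0.06 in Rb1KO MEFs, which did not pass (adjusted p = 0.93). Between TKO and Rb1KO MEFs 0 of the 19 genes passed upward (5.92% of all genes did), so Cda did not. Rrm2b, the reductase subunit used outside S phase, differed from WT by -0.31 in TKO-Ras, -0.06 in TKO and -0.19 in Rb1KO MEFs on the log2 scale (adjusted p = 0.39, 0.90 and 0.65), and mitochondrial thymidine kinase Tk2 had -0.32 in TKO-Ras, 0.00 in TKO and -0.21 in Rb1KO MEFs (adjusted p = 0.078, 0.99 and 0.28). Dguok, the mitochondrial deoxyguanosine kinase, was lower in TKO-Ras MEFs (-0.82, adjusted p = 0.0071), with -0.28 in TKO and -0.27 in Rb1KO MEFs, which did not pass. Cad, the enzyme that opens pyrimidine synthesis, had 0.99 in TKO-Ras, 0.35 in TKO and 0.94 in Rb1KO MEFs over WT, passed in TKO-Ras and Rb1KO MEFs, and was higher in TKO-Ras than in TKO MEFs (0.63, adjusted p = 0.041) and lower in TKO than in Rb1KO MEFs (-0.59, adjusted p = 0.048).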

How the data were processed

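RNA of 12 untreated MEF cultures (3 each of TKO-Ras, TKO, Rb1KO and WT) was hybridised to Affymetrix MOE430 2.0 arrays from 100 ng of total RNA. The authors normalised the scans by RMA in Partek Genomics Suite 6.5, and the deposited log2 values (2.18 to 14.92, their scale read from these values) were used unchanged. Control probe sets were left out, which left 45037 tested. Of these, 34945 carry 1 gene symbol, 932 several and 9160 none, and only the first kind was named, which leaves out Chaf1a. A gene was read from its brightest probe set on average. limma 3.58.1 in R 4.3.3 fitted the 4 groups together with 5 contrasts, and p-values were adjusted by Benjamini-Hochberg over 45037 probe sets, with a call at an adjusted p under 0.05. The gene set was not used to set p-values, and no test was run over the set as a whole. The steps were tested on simulated data. Values by array are given for the 2 genes of each complex with the largest and the 1 with the smallest change in TKO against WT, and for genes at background in a group or called against their complex; other lists are named by up to 4 largest called changes and those of opposite direction. Pcna, Rrm2, Rrm2b, Tk2 and Polg were added with their values known. The genes and lists were chosen with earlier results of these data known. Alternatives were other scaling (median centring, cyclic loess), no, or trended and robust, variance moderation, fits of 2 groups, other choices of probe set, a filter on dim probe sets, other background levels, a replicate block, and leaving out each array. RefSeq promoters (GRCm38.p6) were searched on both strands for E2F, CCAAT and TTTGAA strings. The same-numbered arrays of different groups share only a number.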

Additional observations from a re-analysis of the deposited data

How the results depend on the processing

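Against WT, the counts of 45 higher and 0 lower genes in TKO-Ras, TKO and Rb1KO MEFs held under scaling, moderation and leaving out any array. Fits of only 2 groups kept 43 genes in TKO (Orc2 and Rrm2 lost, adjusted p = 0.054 and 0.066 from limma) and 44 in Rb1KO MEFs (Rrm2 lost, 0.066), and probe sets without a suffix exist for 39 genes, all called. The 3 single calls between mutants, Dut, Pold2 and Tyms, were less firm. For TKO against Rb1KO, 0 genes were higher without moderation, and leaving out 1 array gave 0 to 1 higher and 0 to 1 lower. For TKO-Ras against TKO, 1 gene (Rpa2) was higher after cyclic loess and 1 after the filter on dim probe sets, 0 were lower without moderation and 0 with only 2 groups, and leaving out 1 array gave 0 to 1 lower. The number of gene and group pairs at background was 1, with 0 under the lower and 2 under the higher background level (3.84 and 5.82). With the replicate number as a block no call changed (45 higher in TKO, TKO-Ras and Rb1KO MEFs over WT, 1 higher and 1 lower for TKO against Rb1KO, 0 and 1 for TKO-Ras against TKO). The correlation of same-numbered deviations ran from -0.207 to 0.191, so the samples were not treated as pairs. No call was reversed in direction. Genes without a call could change sign between settings, such as Cdt1 in TKO-Ras against TKO MEFs (-0.28 to 0.14 on the log2 scale). Tyms is limited by its dim probe sets. Fold changes moved by over 1.5 times with the mean of all probe sets for 6 genes in TKO-Ras, 9 in TKO and 9 in Rb1KO MEFs over WT, all still called.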

Other observations

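Replication of mitochondrial DNA was covered by 13 genes, of which 9 were higher in TKO-Ras, 8 in TKO and 9 in Rb1KO MEFs than in WT by limma, with 0 lower and medians of 0.61, 0.52 and 0.63 on the log2 scale, against 0.11, 0.05 and 0.08 over all genes, of which 19.4%, 13.6% and 15.6% were higher. The genes with the largest changes in TKO MEFs were Mgme1, a nuclease that processes mitochondrial DNA ends (1.29 in TKO-Ras, 1.20 in TKO and 0.91 in Rb1KO MEFs over WT), and Tfam, which packs mitochondrial DNA and starts its transcription (1.13 in TKO-Ras, 1.07 in TKO and 1.05 in Rb1KO MEFs). Polg, the mitochondrial polymerase, had 0.40 in TKO-Ras, 0.34 in TKO and 0.18 in Rb1KO MEFs, which did not pass in TKO MEFs (adjusted p = 0.25). None of the 13 genes passed between TKO-Ras and TKO or between TKO and Rb1KO MEFs.

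Of 12 listed polymerases that bypass or repair damaged DNA, 4 were higher and 1 lower in TKO-Ras, 1 and 0 in TKO and 4 and 1 in Rb1KO MEFs than in WT by limma, against 19.4%, 13.6% and 15.6% higher and 14.3%, 9.9% and 12.3% lower over all genes. Mad2l2, an accessory subunit of polymerase zeta that also acts in mitosis, rose over WT by 1.16 in TKO-Ras, 0.79 in TKO and 0.99 in Rb1KO MEFs on the log2 scale. Polb, the polymerase of base excision repair, was lower in TKO-Ras than in TKO MEFs (log2 fold change -0.74, adjusted p = 0.0048 from limma). Poli rose by 1.12 in Rb1KO MEFs, while Polk fell by 0.93 there. These genes were picked for description with their values known.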
